A study of Capra hircus with 6 samples.

Results

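The genes described here are the HOX cluster genes, all rows of the deposited expression tables whose symbol is HOX followed by the cluster letter A, B, C or D and a number. There were 34 such genes among 16285 identifiers, 11 in HOXA, 8 in HOXB, 9 in HOXC and 6 in HOXD. They were chosen by name alone, and HOXB4, HOXB13, HOXD1, HOXD4 and HOXD12 are not analysed here. The cells were adipose mesenchymal stem cells of the goat (Capra hircus), which are stromal cells from fat tissue with the capacity to become adipocytes, and their RNA was sequenced. There were 3 libraries with the genotype label overexpressing YAP and 3 control libraries with the genotype label WT, and the labels of both groups gave adipogenic differentiation as the treatment. Details not given in the sources used here include the vector and promoter, the fat depot, the animals and the day of harvest, and the series' design text names a TAZ line where the sample labels name YAP.

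HOX genes encode transcription factors that bind DNA through a homeodomain. In mammals they lie in 4 clusters, and the number in a gene name gives its paralog group, the place it holds along its cluster. In the embryo, genes with low numbers are used first and towards the head, and genes with high numbers later and towards the tail and the tips of the limbs. In human fibroblasts and stromal cells kept in culture, the set of HOX genes in use is known to differ by the body site the cells came from, so the set is read as a record of position. The question put to the data was which clusters and positions were in use in these goat cells, and whether the libraries labelled YAP and the control libraries had the same set.

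Levels are FPKM, fragments scaled to the length of the gene model and to the counted fragments of the library, so that levels of different genes are compared per length. Means are given ± SD over 3 libraries. Log2 changes are the libraries labelled YAP minus control on the log2(FPKM + 1) scale, which understates changes of low genes, and come from limma with adjustment over the 10761 genes that reached 1 FPKM in 3 or more libraries. The threshold was an adjusted p of 0.05. The libraries held 32593380 to 37131015 counted fragments, and whole reads could be recovered from the FPKM values. Nothing in the labels says that replicates are separate cultures or animals, so the p-values measure the spread among these libraries alone, and that spread may be technical.

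The gene named in the labels, YAP1, was not higher in the libraries labelled YAP. It had 28.4, 25.6 and 28.2 FPKM there, against 25.8, 26.97 and 28.9 FPKM in control libraries (limma adjusted p = 0.95; exact two-sided permutation p = 1, where 3 against 3 libraries allow no p below 0.1). WWTR1, the gene of TAZ, had 21.9, 19.2 and 23.1 FPKM in the libraries labelled YAP, all below the 30.2, 29.9 and 35.9 FPKM of control libraries (limma adjusted p = 0.0013). The groups are therefore called by their labels, and directions below are those of the labelled libraries. All 12 stromal markers were above the filter in both groups, with summed levels of 34189 to 34820 FPKM in the libraries labelled YAP and 29747 to 31207 in control libraries, and 7 of them rose and 3 fell (58.3% and 25%, against 12.9% and 23.0% of all tested genes). Markers of other cells had low sums: 6 endothelial genes had 0.215 to 0.293 FPKM in the libraries labelled YAP and 0.336 to 0.533 in control libraries, and 8 epithelial genes had 1.26 to 2.10 in the libraries labelled YAP and 1.52 to 2.16 in control libraries. The 10 leukocyte genes summed to 30.7 to 32.5 FPKM in the libraries labelled YAP and 23.1 to 26.6 in control libraries, nearly all from CD14, LAPTM5 and CD68, and AIF1 was at 0. The 5 muscle lineage genes summed to 16.1 to 16.5 FPKM in the libraries labelled YAP and 1.56 to 4.69 in control libraries, mostly ACTC1, a cardiac actin gene, with MYOG at 0. The 8 mature adipocyte genes summed to 12.7 to 14.9 FPKM in the libraries labelled YAP and 20.05 to 22.5 in control libraries. Of the 3 adipocyte genes that were tested, 1 rose and 1 fell, and the same counts held for the leukocyte list. Each was 33.3% of its list's tested genes, beside the 12.9% and 23.0% of all tested genes, so these sums do not stand for every member. The part of these differences in the HOX results was not tested, and in bulk RNA fewer cells of a type and less RNA per cell cannot be told apart.

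In both groups the HOX signal came from the middle of the clusters. At a mean of at least 1 FPKM, taken here as expressed, there were 16 genes in the libraries labelled YAP and 17 in control libraries, and 15 were the same in both. Another 7 genes had a mean under 0.1 FPKM, taken as near 0, and these were the same 7 in both groups. The 13 members of paralog groups 4 to 8 carried 73.3 ± 0.165% of the summed HOX FPKM in the libraries labelled YAP and 75.1 ± 0.469% in control libraries. The 4 members of paralog group 9 added 16.7 ± 0.43% in the libraries labelled YAP and 14.3 ± 0.333% in control libraries. The 7 members of groups 1 to 3 added 7.14 ± 0.216% in the libraries labelled YAP and 8.20 ± 0.216% in control libraries. The 10 members of groups 10 to 13 made up 2.92 ± 0.425% in the libraries labelled YAP and 2.35 ± 0.122% in control libraries. Shares depend on each other, since a lower level of 1 gene raises the shares of the rest. As sums, group 9 had 15.8, 16.9 and 15.8 FPKM in the libraries labelled YAP and 13.9, 16.3 and 15.4 in control libraries, which overlap. The sums of groups 4 to 8 also overlapped, with 68.3 to 76.5 FPKM in the libraries labelled YAP and 75.3 to 84.5 in control libraries. Those of groups 10 to 13 overlapped as well. The sums of groups 1 to 3 did not overlap, with 6.58, 7.72 and 6.52 FPKM in the libraries labelled YAP and 8.01, 9.54 and 8.56 in control libraries. Every cluster with members on both sides of group 9 dropped beyond it, and that drop stood at the same place in both groups.

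**Figure D1:**
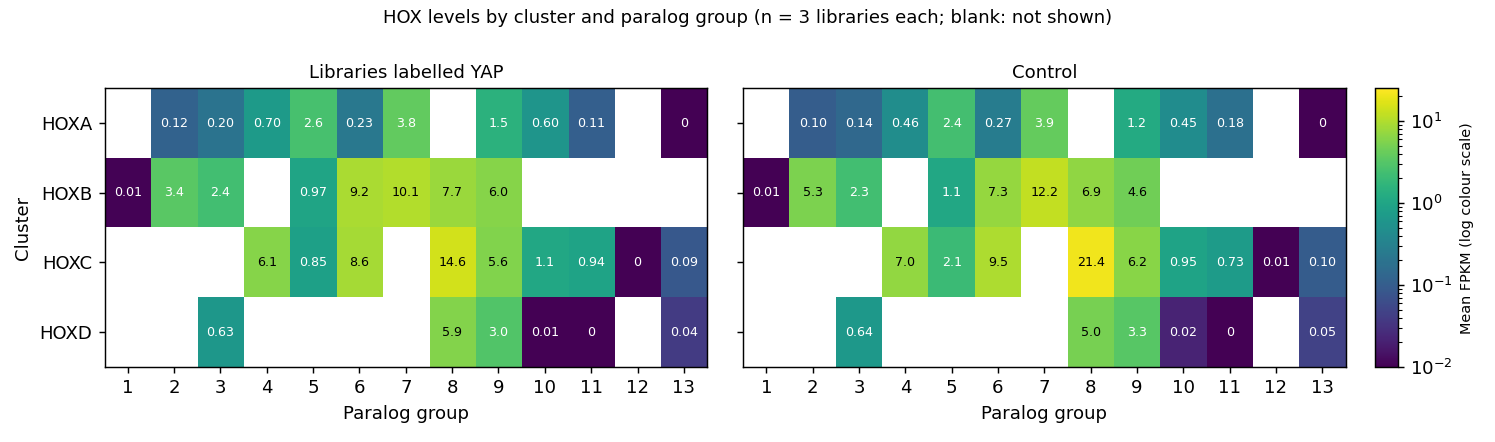
Mean FPKM of 33 of the 34 HOX genes (n = 3 libraries per group) on a logarithmic colour scale, with clusters down the page and paralog groups across it, for the libraries labelled YAP (left) and control (right). Most of the bright cells lie in paralog groups 4 to 9 in both panels, although HOXB2 in group 2 is also bright and HOXA4 and HOXA6 are dim, with HOXC8 the highest at 14.6 FPKM in the libraries labelled YAP and 21.4 FPKM in control libraries.

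The anterior members, paralog groups 1 to 3, were low apart from HOXB2 and HOXB3. HOXB3, which patterns the hindbrain and neck region in mice, had 2.30, 2.56 and 2.23 FPKM in the libraries labelled YAP and 2.23, 2.41 and 2.32 FPKM in control libraries. The groups overlapped and the log2 change was 0.02 (95% confidence interval -0.18 to 0.21, limma adjusted p = 0.90). HOXA2, which specifies the second pharyngeal arch in mice, averaged 0.118 ± 0.0582 FPKM in the libraries labelled YAP and 0.101 ± 0.0686 in control libraries. HOXA3, needed for the thymus and parathyroid in mice, averaged 0.198 ± 0.0765 FPKM in the libraries labelled YAP and 0.142 ± 0.0197 in control libraries. HOXD3 averaged 0.631 ± 0.126 FPKM in the libraries labelled YAP and 0.645 ± 0.0663 in control libraries. HOXB1, a hindbrain gene, had 1 read in 1 library of each group and 0 in the others. HOXA2, HOXA3, HOXB1 and HOXD3 did not reach the filter and have no test.

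HOXB2, which acts in hindbrain segment identity in mice, was the anterior member that fell. It had 3.01, 3.86 and 3.28 FPKM in the libraries labelled YAP, against 4.71, 5.98 and 5.25 FPKM in control libraries. The highest library labelled YAP lay below the lowest control library. The log2 change was -0.53 (SE 0.11, 95% confidence interval -0.76 to -0.29, limma adjusted p = 0.0033), and all 3 libraries labelled YAP were below the control mean. Beside it in the cluster, HOXB3 gave a yardstick that does not depend on how libraries are scaled: the ratio of HOXB2 to HOXB3 was 1.31, 1.51 and 1.47 in the libraries labelled YAP and 2.11, 2.48 and 2.26 in control libraries. The ratios of the groups did not overlap. This and the other ratios below were chosen after the values were seen and are given as descriptions.

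The central members held the highest levels and the clearest differences. HOXC8, which shapes the thoracic skeleton and is known in mice as a brake on the brown fat programme, was the highest HOX gene by FPKM in all 6 libraries. It had 14.4, 14.6 and 14.8 FPKM in the libraries labelled YAP, against 20.5, 22.1 and 21.7 FPKM in control libraries. All 3 libraries labelled YAP lay well below the lowest control library, and the spread within each group was small. The log2 change was -0.53 (SE 0.08, 95% confidence interval -0.69 to -0.36, limma adjusted p = 3.3e-04), from 1078 to 1243 reads in the libraries labelled YAP and 1627 to 1705 in control libraries. HOXC6 had more reads, 2771 to 3068 per library, but the length implied by its FPKM was 9317 bases, against 2269 for HOXC8. The order of genes by FPKM, and the shares of clusters and paralog groups, thus depend on such lengths. The paralogs of HOXC8 in the same libraries did not pass the threshold. HOXB8 had 7.20, 8.86 and 6.92 FPKM in the libraries labelled YAP and 6.47, 7.58 and 6.65 FPKM in control libraries (limma adjusted p = 0.37), and the groups overlapped. HOXD8 had 5.88, 6.12 and 5.56 FPKM in the libraries labelled YAP, all above the 5.19, 5.03 and 4.83 FPKM of control libraries (log2 change 0.19, 95% confidence interval -0.00 to 0.37, limma adjusted p = 0.11). HOXD8 passed when libraries were scaled by median of ratios (log2 change 0.27, limma adjusted p = 0.035). HOXC8 thus stood 2.50 ± 0.141 times above HOXD8 in the libraries labelled YAP and 4.28 ± 0.29 times above it in control libraries.

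HOXC5, an axial patterning gene from the neck end of the HOXC cluster, had the largest change of the 18 tested HOX genes by size of log2 change. It had 0.655, 1.13 and 0.765 FPKM in the libraries labelled YAP, against 2.11, 2.25 and 1.92 FPKM in control libraries. The mean in the libraries labelled YAP was 0.406 times the control mean, and the groups did not overlap. The log2 change was -0.75 (SE 0.11, 95% confidence interval -0.99 to -0.51, limma adjusted p = 3.5e-04). The size depended on the pseudocount, with -1.23 at a pseudocount of 0.1 and -1.34 from limma-voom on recovered reads. Its reads were 46, 70 and 54 in the libraries labelled YAP and 140, 145 and 126 in control libraries. The 3 control libraries and 1 of the libraries labelled YAP reached 1 FPKM, so HOXC5 passed the filter largely through the group in which it is high.

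The neighbours of HOXC5 on both sides were high and did not pass the threshold. HOXC4 had 5.42, 7.12 and 5.73 FPKM in the libraries labelled YAP and 6.35, 7.95 and 6.71 FPKM in control libraries (log2 change -0.18, 95% confidence interval -0.43 to 0.07, limma adjusted p = 0.25). HOXC6, a thoracic patterning gene, had 8.59, 9.12 and 8.07 FPKM in the libraries labelled YAP and 9.42, 9.50 and 9.45 FPKM in control libraries (log2 change -0.13, 95% confidence interval -0.31 to 0.06, limma adjusted p = 0.26). The groups overlapped for HOXC4 and did not overlap for HOXC6. The ratio of HOXC5 to HOXC4 was 0.138 ± 0.0194 in the libraries labelled YAP and 0.3004 ± 0.0274 in control libraries, and to HOXC6 it was 0.0983 ± 0.024 in the libraries labelled YAP and 0.221 ± 0.0173 in control libraries. Transcripts of HOXC4, HOXC5 and HOXC6 are known in mammals to share exons, and no source used here gives how shared reads were assigned, so these 3 levels carry that uncertainty.

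HOXB6, which sits in the middle of its cluster, rose. It had 9.05, 10.1 and 8.45 FPKM in the libraries labelled YAP, against 7.18, 7.67 and 7.12 FPKM in control libraries, and the groups did not overlap. The log2 change was 0.29 (SE 0.09, 95% confidence interval 0.09 to 0.49, limma adjusted p = 0.027). The call was lost without YAP replicate 1 (limma adjusted p = 0.093), YAP replicate 2 (0.11), Control replicate 1 (0.066) or Control replicate 3 (0.053). HOXB7, next to it and the second highest HOX gene in both groups, had 9.53, 11.4 and 9.38 FPKM in the libraries labelled YAP and 10.6, 13.5 and 12.5 FPKM in control libraries. The groups of HOXB7 overlapped, and its log2 change of -0.25 (95% confidence interval -0.49 to -0.02) did not pass (limma adjusted p = 0.089). It passed without YAP replicate 2 (0.039) or Control replicate 1 (0.038). The ratio of HOXB7 to HOXB6 was 1.10 ± 0.0386 in the libraries labelled YAP and 1.67 ± 0.164 in control libraries, with no overlap.

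The other central members were low or similar. HOXA5, which acts in lung and axial development in mice, averaged 2.57 ± 0.18 FPKM in the libraries labelled YAP and 2.42 ± 0.283 in control libraries (limma adjusted p = 0.63). HOXA7 averaged 3.76 ± 0.283 FPKM in the libraries labelled YAP and 3.92 ± 0.449 in control libraries (limma adjusted p = 0.75). The gene between them, HOXA6, had only 15 to 36 reads per library and averaged 0.233 ± 0.0821 FPKM in the libraries labelled YAP and 0.268 ± 0.0361 in control libraries, so that the expressed stretch of HOXA was interrupted in both groups. HOXA4 averaged 0.703 ± 0.0967 FPKM in the libraries labelled YAP and 0.458 ± 0.119 in control libraries, without overlap but below the filter. HOXB5 lay at the expression threshold, with 0.745, 1.05 and 1.11 FPKM in the libraries labelled YAP and 1.14, 1.08 and 1.01 FPKM in control libraries (limma adjusted p = 0.54), between the higher genes HOXB3 and HOXB6.

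Paralog group 9 was expressed from all 4 clusters. HOXB9, which acts with its paralogs in rib patterning in mice, had 5.91, 6.20 and 5.92 FPKM in the libraries labelled YAP, against 3.65, 4.71 and 5.31 FPKM in control libraries. The groups did not overlap, although control replicate 3 came close to the libraries labelled YAP. It rose (limma adjusted p = 0.034), with a log2 change of 0.35, an SE of 0.11 and a 95% confidence interval of 0.10 to 0.60. The call was lost without YAP replicate 1 (limma adjusted p = 0.089), YAP replicate 2 (0.072), YAP replicate 3 (0.060) or Control replicate 1 (0.0998, with a log2 change of 0.22), and with no filter on low values (0.091). The ratio of HOXB9 to its neighbour HOXB8 was 0.792 ± 0.0816 in the libraries labelled YAP and 0.661 ± 0.123 in control libraries, and the groups overlapped. The RefSeq intervals of HOXB9 and HOXB8 overlap in the ARS1.2 assembly, so their reads may not be fully separate.

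HOXC9, used in mice as a marker of white subcutaneous fat, had 5.35, 6.16 and 5.39 FPKM in the libraries labelled YAP and 5.65, 6.97 and 5.88 FPKM in control libraries (log2 change -0.11, 95% confidence interval -0.33 to 0.11, limma adjusted p = 0.42). HOXD9 averaged 3.01 ± 0.109 FPKM in the libraries labelled YAP and 3.28 ± 0.285 in control libraries (limma adjusted p = 0.46). HOXA9, known in mice and humans for its role in blood stem cells, had 1.43, 1.62 and 1.51 FPKM in the libraries labelled YAP, all above the 1.01, 1.35 and 1.20 FPKM of control libraries. It did not pass (log2 change 0.21, 95% confidence interval 0.00 to 0.41, limma adjusted p = 0.11). Within the group, HOXB9 stood 1.07 ± 0.055 times as high as HOXC9 in the libraries labelled YAP and 0.741 ± 0.141 times as high in control libraries. By FPKM, HOXC9 was thus the highest member of the group in every control library, and HOXB9 was the highest in every library labelled YAP. In YAP replicate 2 HOXB9 and HOXC9 were nearly level (6.20 and 6.16 FPKM). In reads HOXB9 was above HOXC9 in every library, so this order depends on their implied lengths, 2627 bases for HOXB9 and 1538 for HOXC9.

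**Figure D2:**
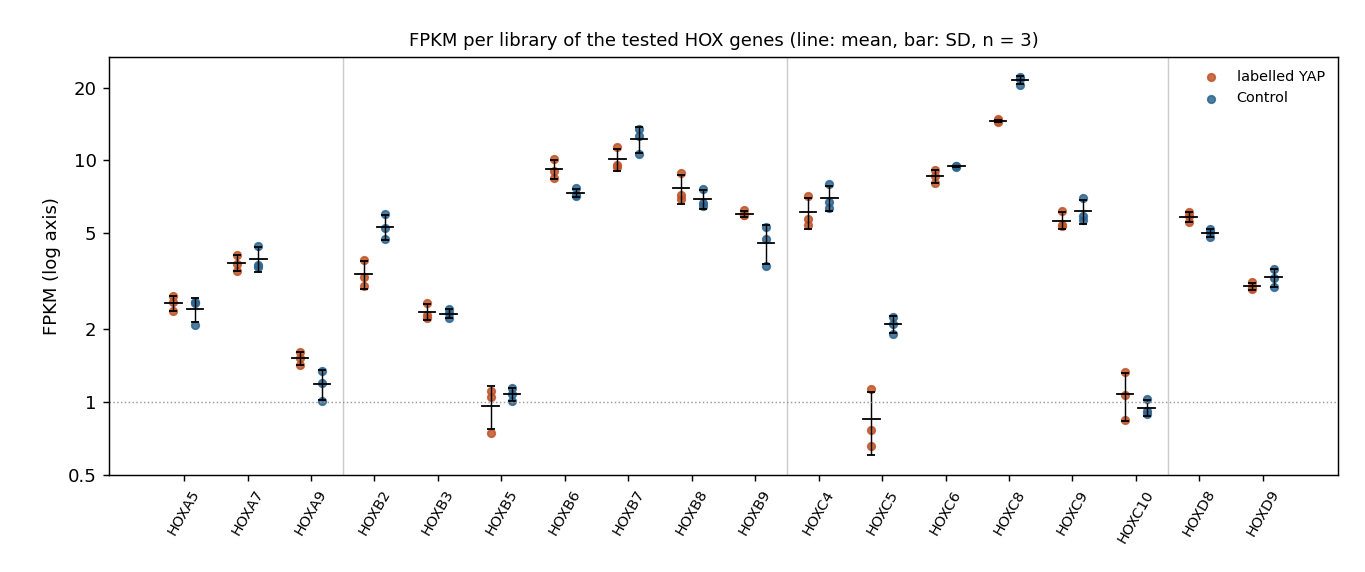
FPKM per library, on a logarithmic axis, of the 18 HOX genes that entered the fit, with the libraries labelled YAP left of control for each gene, the mean as a line and the SD as a bar (n = 3 each). Of the genes past the threshold, HOXC8, HOXC5 and HOXB2 lie apart with the libraries labelled YAP lower, and HOXB6 and HOXB9 with them higher. HOXC6 (lower), HOXA9 and HOXD8 (both higher) also lie apart but did not pass the threshold. The dotted line marks 1 FPKM.

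Beyond paralog group 9 the levels dropped. In HOXD the edge was sharp, since HOXD9 had 110 to 142 reads per library and its neighbour HOXD10 had 0 to 2. HOXD10 had 0.015, 0 and 0 FPKM in the libraries labelled YAP and 0, 0.0328 and 0.0321 FPKM in control libraries, 1 read in the libraries labelled YAP and 4 in control libraries in all, too few for a comparison. In HOXC the drop was more gradual. HOXC10, which in mice and humans is active in white fat and counters its browning, had 0.843, 1.33 and 1.07 FPKM in the libraries labelled YAP and 0.920, 0.891 and 1.03 FPKM in control libraries (log2 change 0.09, limma adjusted p = 0.52). HOXC11 averaged 0.937 ± 0.273 FPKM in the libraries labelled YAP and 0.733 ± 0.0643 in control libraries, and was not tested. HOXC13, a gene of hair and nail, averaged 0.0852 ± 0.0542 FPKM in the libraries labelled YAP and 0.0972 ± 0.0425 in control libraries, and HOXC12 had 1 read in a single control library and none elsewhere.

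In HOXA, HOXA10, a gene of the lumbar region and the uterus in mice, averaged 0.599 ± 0.123 FPKM in the libraries labelled YAP and 0.454 ± 0.0838 in control libraries. HOXA11, which shapes the forearm in mice, averaged 0.106 ± 0.0427 FPKM in the libraries labelled YAP and 0.181 ± 0.122 in control libraries, from 5 to 25 reads. HOXA13 and HOXD13, genes of the tips of limbs, were at or near 0, and so was HOXD11. HOXA13 and HOXD11 had 0 reads in all 6 libraries, and HOXD13, mutated in human digit malformations, had 0 to 3 reads per library. A count of 0 allows up to 3 reads. For a gene of 2860 bases, the median length, that is 0.0282 to 0.0322 FPKM depending on the library, a limit for counting error alone.

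The set of genes in use was largely kept. Of the 34 genes, 31 lay on the same side of 1 FPKM in both groups. The 3 that crossed were HOXC5 (0.850 ± 0.249 FPKM in the libraries labelled YAP and 2.09 ± 0.169 in control libraries), HOXB5 (0.967 ± 0.195 in the libraries labelled YAP and 1.07 ± 0.0658 in control libraries) and HOXC10 (1.08 ± 0.242 in the libraries labelled YAP and 0.948 ± 0.0745 in control libraries). Of these 3, HOXC5 alone passed the test of a difference. The count on the same side was 32 at a threshold of 0.5 FPKM and 33 at 2 FPKM. Genes far from a threshold, such as the 7 near 0, could hardly cross it, and no count over all genes is given beside these. Across the 34 genes, Pearson's r of the group means of log2(FPKM + 1) was 0.986 and Spearman's rho of the levels was 0.989. Between single libraries r ran from 0.995 to 0.996 within the libraries labelled YAP, from 0.996 to 0.998 within control libraries and from 0.979 to 0.988 between the groups. These correlations describe points that share gene lengths and library scaling, and many genes at or near 0 raise them. Over the 18 tested genes alone r was 0.952 and rho 0.957.

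**Figure D3:**
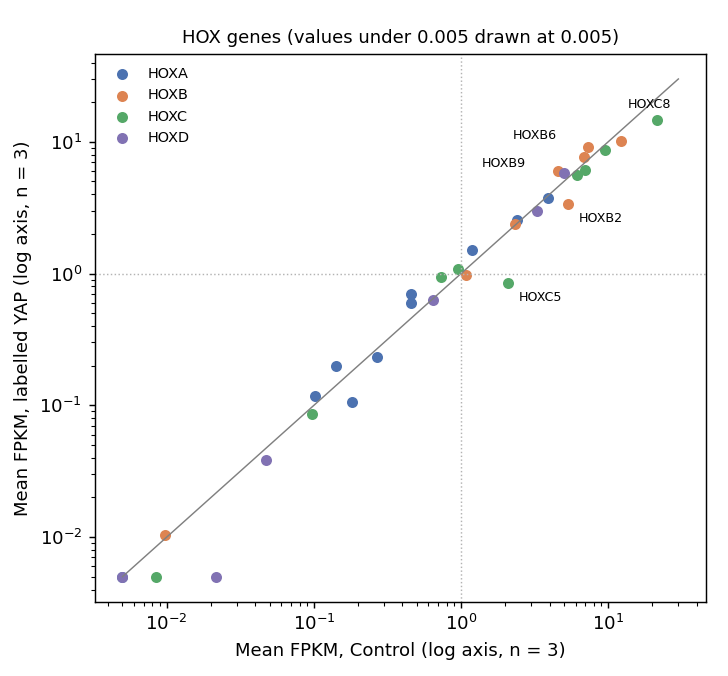
Mean FPKM of 33 of the 34 HOX genes in the libraries labelled YAP (vertical) against control (horizontal), both on logarithmic axes and coloured by cluster, with values under 0.005 drawn at 0.005 and the line of equality. Most genes lie along the line over the whole range, and the 5 genes past the threshold are named, with HOXC5 below 1 FPKM on the vertical axis and above it on the horizontal axis.

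Of the 18 HOX genes that entered the fit, 5 differed between the groups, 2 higher (HOXB6, HOXB9) and 3 lower (HOXB2, HOXC5, HOXC8) in the libraries labelled YAP. Over all 10761 tested genes 35.9% were called, 12.9% higher and 23.0% lower, so the HOX share of 27.8% was not above the background. The HOX groups did not overlap in 8 tested genes, 4 higher and 4 lower, where 48.3% of all tested genes did not overlap (16.7% higher and 31.6% lower). The median log2 change was -0.06 over the 18 tested HOX genes and -0.10 over all tested genes. Of all calls in the deposited FPKM, 36.0% were higher and 64.0% lower, and 54.4% were higher and 45.6% lower when libraries were scaled by median of ratios, which moved the median of all tested genes to -0.015. The 3 lower HOX genes were called under every alternative that was run, the 6 fits without a library included. The log2 change ranged from -0.56 to -0.44 for HOXC8 and from -0.66 to -0.45 for HOXB2 over these alternatives, and from -1.34 to -0.67 for HOXC5. The remaining 16 HOX genes had too low a level for the filter.

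**Figure D4:**
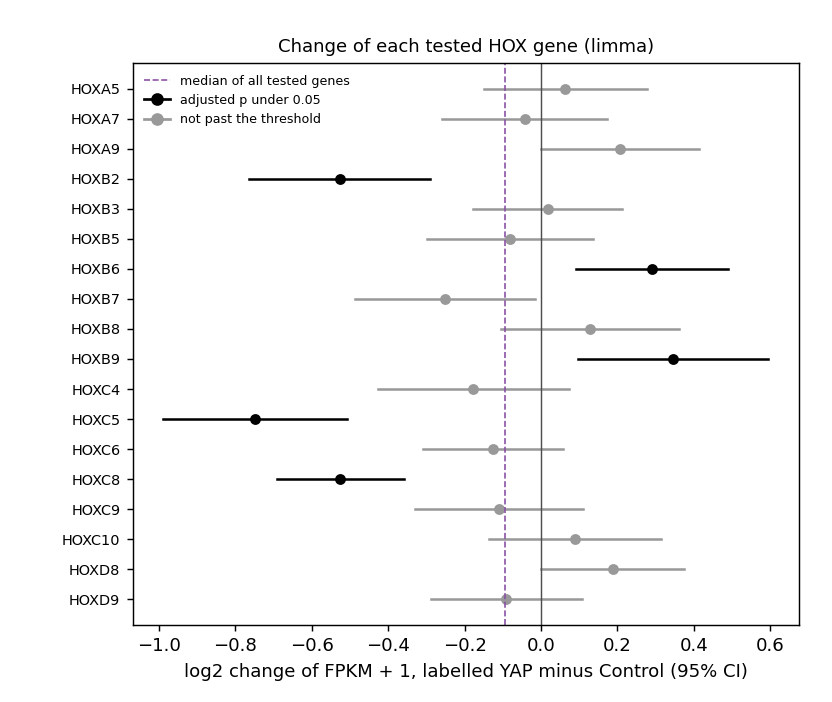
Log2 change on the log2(FPKM + 1) scale, the libraries labelled YAP minus control, with its 95% confidence interval from limma for the 18 tested HOX genes in cluster order, black where the adjusted p was under 0.05. HOXB2, HOXC5 and HOXC8 lie left of 0 and HOXB6 and HOXB9 right of it, and the dashed line is the median of all tested genes.

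Summed by cluster, HOXB and HOXC carried most of the signal. The 9 HOXC genes summed to 36.0, 40.7 and 36.9 FPKM in the libraries labelled YAP and 45.9, 50.4 and 47.6 FPKM in control libraries. The groups did not overlap. Without HOXC8 the sums of the groups overlapped, with means of 23.3 FPKM in the libraries labelled YAP and 26.5 in control libraries. The 8 HOXB genes summed to 37.7, 44.0 and 37.3 FPKM in the libraries labelled YAP and 36.0, 42.9 and 40.3 FPKM in control libraries, where a fall of HOXB2 stood beside the rises of HOXB6 and HOXB9. The 11 HOXA genes averaged 10.04 ± 0.462 FPKM in the libraries labelled YAP and 9.29 ± 1.20 in control libraries, and the 6 HOXD genes 9.54 ± 0.468 FPKM in the libraries labelled YAP and 9.004 ± 0.527 in control libraries, with overlap for both clusters. As shares of the summed HOX FPKM, which no scaling of a library alters, HOXC made up 39.0 ± 0.382% in the libraries labelled YAP and 45.3 ± 0.74% in control libraries, and HOXB 40.8 ± 1.12% in the libraries labelled YAP and 37.4 ± 1.11% in control libraries. HOXC8 alone made up 15.5, 13.9 and 15.8% in the libraries labelled YAP and 20.6, 19.6 and 20.6% in control libraries. No test was made of these sums.

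**Figure D5:**
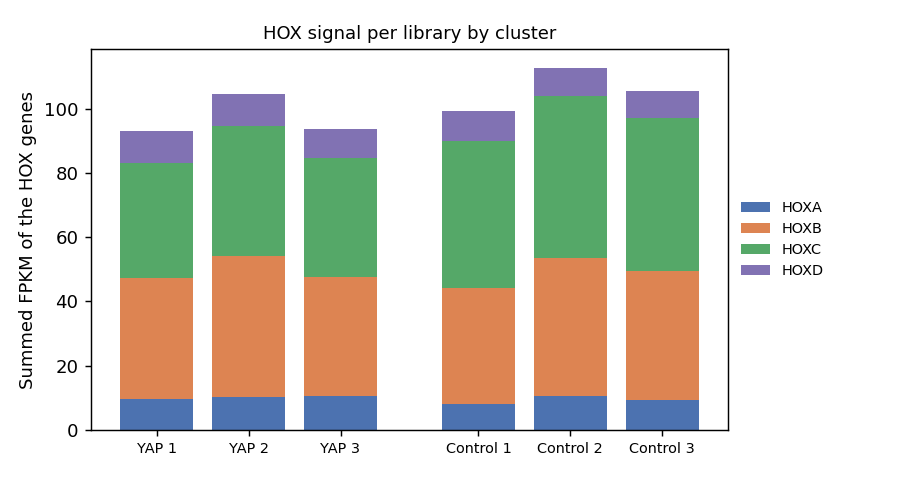
Summed FPKM of the HOX genes in each library, stacked by cluster from HOXA at the bottom to HOXD at the top, with the libraries labelled YAP left of control. The HOXC segment runs from 36.0 to 40.7 FPKM in the libraries labelled YAP and from 45.9 to 50.4 FPKM in control libraries, while the HOXA and HOXD segments overlap.

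HOX proteins bind DNA together with cofactors of the TALE class, the PBX, MEIS and PKNOX proteins. Of 7 tested cofactor genes 1 rose and 1 fell, 14.3% each way, where 12.9% of all tested genes rose and 23.0% fell, so the counts do not stand apart from the background. Their median log2 change was 0.08, against -0.10 over all tested genes. MEIS3 rose, with 10.8 ± 1.15 FPKM in the libraries labelled YAP and 7.50 ± 1.47 in control libraries (log2 change 0.48, SE 0.12, limma adjusted p = 0.011). MEIS2 fell, with 3.97 ± 0.183 FPKM in the libraries labelled YAP and 5.21 ± 0.665 in control libraries (limma adjusted p = 0.029), a call that median-of-ratios scaling removed (limma adjusted p = 0.096), as did the absence of a filter and 5 of the 6 fits without a library, all but the one without Control replicate 1. The most abundant cofactor gene, PBX2, chosen after its values were seen, had 24.1 ± 0.799 FPKM in the libraries labelled YAP and 22.8 ± 0.201 in control libraries (limma adjusted p = 0.43). Under median-of-ratios scaling 3 cofactor genes passed as higher and 0 as lower, where 16.1% of all tested genes passed as higher and 13.5% as lower.

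Other transcription factors known to mark positions in the limb and body wall were also measured. Of 13 tested, 4 rose and 1 fell. These were 30.8% and 7.69% of the list, beside the 12.9% and 23.0% of all tested genes, and the list's median log2 change was 0.12. Under median-of-ratios scaling 5 passed as higher and 0 as lower, where 16.1% of all tested genes passed as higher and 13.5% as lower. TBX3, a factor of limb and mammary development, rose to 11.2 ± 0.482 FPKM in the libraries labelled YAP, against 5.85 ± 0.961 in control libraries (log2 change 0.85, SE 0.11, limma adjusted p = 1.3e-04). EMX2, which acts in the shoulder blade and urogenital tract in mice, rose to 8.14 ± 0.557 FPKM, against 5.11 ± 1.03 in control libraries, and SHOX2, a factor of the upper limb segment, to 14.4 ± 1.35, against 11.6 ± 0.667 in control libraries. HAND2, a factor of posterior limb mesenchyme, fell to 10.7 ± 0.364 FPKM, against 13.8 ± 1.38 in control libraries (limma adjusted p = 0.014), and did not pass under median-of-ratios scaling (limma adjusted p = 0.064). The SHOX2 call was lost in 4 of the 6 fits without a library (those without YAP replicate 1 or 2 or Control replicate 2 or 3) and with no filter, and that of HAND2 without YAP replicate 1 or Control replicate 2. As genes singled out after their values were seen, the forelimb factor TBX5 had 1.93 ± 0.0249 FPKM in the libraries labelled YAP and 2.30 ± 0.0425 in control libraries (limma adjusted p = 0.13), and the hindlimb factor TBX4 had 0 reads in all 6 libraries. PITX1, also a hindlimb factor, had 0.834 ± 0.111 FPKM in the libraries labelled YAP and 0.808 ± 0.134 in control libraries.

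Of 14 tested homeobox genes outside the HOX clusters, 4 rose and 3 fell. The falls, 21.4% of the list, were near the 23.0% of all tested genes, the rises were 28.6% beside 12.9%, and the median log2 change was 0.03. DLX3, a factor of skin appendages and bone, fell to 1.28 ± 0.37 FPKM in the libraries labelled YAP, against 4.04 ± 0.87 in control libraries (log2 change -1.14, SE 0.14, limma adjusted p = 1.2e-04). SIX5 rose to 7.68 ± 0.433 FPKM, against 4.66 ± 0.421 in control libraries, TSHZ1 to 3.26 ± 0.218 against 2.09 ± 0.0212 in control libraries, and MSX2, a target of BMP signalling, to 6.48 ± 1.01 against 4.01 ± 0.519 in control libraries. Under median-of-ratios scaling the counts were 7 higher and 1 lower, where 16.1% of all tested genes passed as higher and 13.5% as lower. None of the 10 genes of a list of head and anterior neural factors passed the filter. The list also holds PAX3 and PAX7, and PAX7 is in the muscle lineage list as well. The 10 genes summed to 1.04 to 1.70 FPKM in the libraries labelled YAP and 1.29 to 1.49 in control libraries.

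Polycomb proteins keep HOX genes silent outside their domain, and trithorax proteins keep them active within it. Of 31 tested Polycomb genes 2 rose and 7 fell. The falls, 22.6% of the list, were near the 23.0% of all tested genes, the rises were 6.45% beside 12.9%, and the median log2 change of -0.08 lay near the -0.10 of all tested genes. EZH2, a methyltransferase that writes the repressive mark on histone H3, fell to 17.6 ± 0.573 FPKM in the libraries labelled YAP, against 27.9 ± 1.06 in control libraries (log2 change -0.63, SE 0.08, limma adjusted p = 9.0e-05). EZH1, its paralog, rose to 5.19 ± 0.188 FPKM, against 3.45 ± 0.454 in control libraries (log2 change 0.48, limma adjusted p = 0.0031). RBBP4, a histone-binding subunit, fell to 74.6 ± 1.01, against 92.7 ± 5.09 in control libraries. Under median-of-ratios scaling the counts were 2 higher and 3 lower, where 16.1% of all tested genes passed as higher and 13.5% as lower. Of 24 tested genes of the trithorax list, which also holds CTCF and cohesin, 0 rose and 6 fell. Under that scaling 1 was higher and 4 lower, beside the same 16.1% and 13.5% of all tested genes. The 25% that fell were near the 23.0% of all tested genes, and the median log2 change was -0.10, as over all tested genes. PSIP1, a chromatin partner of the KMT2A complex, fell to 4.86 ± 0.519 FPKM in the libraries labelled YAP, against 8.03 ± 0.681 in control libraries. The cohesin gene SMC3 fell to 11.8 ± 0.544 FPKM, against 17.8 ± 1.99 in control libraries. DPY30 and ASH2L, subunits shared by the KMT2 complexes, fell as well, DPY30 to 30.5 ± 3.05 FPKM against 39.8 ± 3.23 in control libraries and ASH2L to 14.5 ± 0.412 against 18.3 ± 1.29 in control libraries. Without YAP replicate 1 the calls of DPY30 and ASH2L were lost.

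Retinoic acid induces HOX genes in the embryo, from the anterior end of each cluster. Of 10 tested genes of its pathway 1 rose and 2 fell, shares near the 12.9% and 23.0% of all tested genes, with a median log2 change of -0.08. RDH10, which makes retinal from retinol, fell to 2.87 ± 0.249 FPKM, against 5.27 ± 0.134 in control libraries, and DHRS3, which returns retinal to retinol, rose to 2.45 ± 0.242 FPKM, against 0.428 ± 0.152 in control libraries. DHRS3 passed the filter through the libraries labelled YAP alone. These lists are given beside the HOX values as measurements, and no link between them and the HOX genes was tested.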

How the data were processed

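Libraries were made from total RNA with the VAHTS Universal V6 kit, per the labels' protocols. The tools named are HISAT2, HTSeq and fastp, per the submitters' processing notes. Details not given in the sources used here include the genome build, annotation, strand setting and handling of shared reads. FPKM values, scaled library by library by the authors, were deposited in 2 tables, with control columns in one and YAP columns in the other. Another 6 per-sample columns match no sample label and were not analysed. Of these, 3 columns, named pcDNA, hold the same values as the 3 control columns for all 16285 identifiers, so the control values stand in both tables, and the labels do not say whether the controls carried an empty vector.

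Groups and replicate numbers come from the sample titles. All 34 HOX symbols matched RefSeq's genes on the ARS1.2 assembly, used for names, order and overlap of neighbours. Whole reads (within 0.05) were recovered for 99.997% of FPKM values above 0. Replicates differed by more than counting noise (chi-square per gene 7.92 to 31.9), so all 6 were kept. limma 3.58.1 in R 4.3.3 (lmFit, eBayes with trend) was fitted on log2(FPKM + 1) for the genes that reached 1 FPKM in 3 or more libraries, without a replicate block, and p-values were adjusted by Benjamini-Hochberg over all tested genes. Confidence intervals are 95% intervals of that model. The steps were tested on simulated data. Alternatives were a pseudocount of 0.1, median-of-ratios scaling, no filter, a lower filter of 0.1 FPKM, quantile normalization, a replicate block, limma-voom on recovered reads, other expression thresholds and leaving out each library. Named genes are all HOX members, up to 4 members per other list with the smallest adjusted p past the threshold, and YAP1, and a few genes that this rule names are not reported here. Members and lists were chosen with earlier results of these data known.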

Additional observations from a re-analysis of the deposited data

How the results depend on the processing

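The calls of HOXB2, HOXC5 and HOXC8 were kept under all 13 alternatives to the fit. Over the alternatives run, including other expression thresholds, 14 to 22 HOX genes were expressed in the libraries labelled YAP and 15 to 20 in control libraries. Near 0 were 7 to 8 in the libraries labelled YAP and 6 to 8 in control libraries, and 31 to 33 lay on the same side of the threshold. Cluster sums moved by less than 1 SD, but leaving out 1 of 3 libraries could not have moved them further. After median-of-ratios scaling the HOXC sums were 39.1 FPKM in the libraries labelled YAP and 46.5 in control libraries. Without 1 library, 0 to 2 HOX genes were called higher, 0 of them without YAP replicate 1, YAP replicate 2 or Control replicate 1, where at least 3 lower calls remained. Leaving out a library gave 1387 to 2273 lower calls over all genes and 7 to 19 over the pathway lists, the lowest in each case without YAP replicate 1. After median-of-ratios scaling 1453 genes were lower (2476 in the deposited FPKM), and the pathway lists held 19 higher and 10 lower calls (12 and 20). Same-numbered libraries had correlations of their deviations of -0.02, 0.59 and 0.60, and differently numbered ones ran from -0.62 to 0.14. Deviations within a group sum to 0, so these values depend on each other and the -0.02 does not show that pairing is absent. Whether the numbers pair the libraries was not settled, and the main fit took them as unpaired. With the replicate block 4 HOX genes were called higher and 5 lower, adding HOXA9, HOXD8, HOXB7 and HOXC4, 3745 genes were lower, and the lists held 19 higher and 33 lower calls. Signs changed for small differences that passed nowhere: HOXA7 was 0.029 after median-of-ratios scaling and -0.088 to 0.031 without a library, HOXB3 -0.003 after quantile normalization and -0.024 to 0.045 without a library, and by the same exclusions HOXA5 was -0.007 to 0.102 and HOXB5 -0.133 to 0.003. The cause of these shifts was not tested. Depth limits the genes under 0.1 FPKM, which rest on at most 12 reads per library.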
